A study of Homo sapiens with 6 samples.

Results

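The MHC class I antigen presentation genes described here were 9 of the 58735 genes in the deposited expression table. They were taken by name and comprised the class I heavy chains HLA-B, HLA-C and HLA-E, the light chain B2M, the peptide transporter subunits TAP1 and TAP2, the loading factor TAPBP, and the immunoproteasome subunits PSMB8 and PSMB9. Expression had been measured by RNA sequencing in HCT116SCs, which are cells of the human colorectal carcinoma line HCT116 sorted with magnetic beads for CD44 and CD326 (EPCAM) and grown as tumor spheres. All cells were wild type and derived from 1 cell line. They were kept in serum-free DMEM/F12 with 20 ng/mL EGF, 20 ng/mL bFGF and B27 supplement, and 3 libraries came from cells transfected by liposomes with negative control siRNA (NC) and 3 from cells transfected in the same way with siRNA against PSCA (siPSCA), all collected after 48 h. PSCA is a small surface protein of the Ly6 family anchored by a lipid. Which of the designed siRNAs was used for sequencing is not given in the sources used here. In the titles of siPSCA 2 and siPSCA 3 the digits of the line's name differ from 116, while their other labels give HCT116. Nothing in the labels says that the libraries of a group came from separate cultures, so p-values measure only the spread between these libraries, which may be technical.

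MHC class I molecules display peptides from inside the cell at its surface, where cytotoxic T cells read them. The proteasome cuts cytosolic proteins into peptides, TAP1 and TAP2 carry these into the endoplasmic reticulum (ER), and tapasin (the product of TAPBP) with calreticulin, calnexin and PDIA3 helps to load them onto a heavy chain paired with B2M. Interferons raise transcription of most of these genes through IRF1 among other factors, and the transactivator NLRC5 acts with RFX, CREB and NF-Y factors at class I promoters. Colorectal tumors are known to lose parts of this pathway, B2M included, and thereby to escape recognition by T cells.

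The promoters are shown because interferon response elements and CCAAT boxes are sites through which many of these genes are known to be regulated. The RefSeq table (GRCh38.p14) gave promoter windows of 250 bases before to 50 bases after a transcription start for 8 of the 9 genes, in 10 windows. HLA-E had no entry. Only bases before the start are printed, in the direction of transcription. The letters GAAANNGAAA and GAANNGAAA (interferon response elements of wide and narrow spacing) and CCAAT were searched on both strands, and capitals mark the matches, which read ATTGG, TTTCNNTTTC or TTTCNNTTC where the match lay on the other strand. Neighbouring matches of the element overlapped each other in the printed stretches of B2M, TAP1, TAP2 and TAPBP.
HLA-B, chr6:31357221-31357354, minus strand: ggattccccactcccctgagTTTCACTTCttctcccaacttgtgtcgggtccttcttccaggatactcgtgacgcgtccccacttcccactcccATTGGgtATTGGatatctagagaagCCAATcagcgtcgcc
HLA-C, chr6:31272134-31272263, minus strand: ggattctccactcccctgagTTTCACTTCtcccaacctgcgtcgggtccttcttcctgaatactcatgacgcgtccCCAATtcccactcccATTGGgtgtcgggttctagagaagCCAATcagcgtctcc
B2M, chr15:44711353-44711408, plus strand: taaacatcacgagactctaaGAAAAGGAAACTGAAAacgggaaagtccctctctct
TAP1, chr6:32853803-32853858, minus strand: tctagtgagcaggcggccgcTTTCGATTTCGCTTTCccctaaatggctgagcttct
TAP2, chr6:32838768-32838822, minus strand: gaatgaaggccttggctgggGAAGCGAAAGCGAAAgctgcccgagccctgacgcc
TAPBP, chr6:33314079-33314118, minus strand: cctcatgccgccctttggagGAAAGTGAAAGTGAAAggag
The wide element was present in 3.57% of all 35116 promoter windows of 300 bases, the narrow one in 7.66% and CCAAT in 34.6%. Windows of B2M, TAP1, TAP2, TAPBP and PSMB8 held the wide element, while those of HLA-B and HLA-C held only the narrow one, and the PSMB9 window held neither. CCAAT was present in a window of HLA-B, HLA-C, B2M, TAP1 and PSMB9 and absent from those of TAP2, TAPBP and PSMB8. The CCAAT matches of B2M and TAP1 lay outside the printed stretches. TAP1 and PSMB9 lie head to head, with 488 bases between their starts. HLA-B and HLA-C were alike here, with 226 identical bases in 254 aligned columns of the 250 bases before the start (89% identity). A match is a string of letters and no evidence of binding.

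Targeting of PSCA could not be checked at the transcript level. PSCA had 4, 12 and 15 reads in NC and 9, 9 and 7 in siPSCA, a log2 difference of -0.07 (adjusted p = 0.728), so every direction given here follows the labels. Reads on genes ranged from 16099716 to 17302219 per library. Of 11 colorectal epithelium markers, 7 reached a mean of 1 FPKM, led by KRT19 at 340.4 FPKM, while CDX1 had no read and LGR5 and VIL1 lay near 0. None of 14 leukocyte markers did, and their summed level was 0.610 to 1.25 FPKM in NC and 1.10 to 1.36 FPKM in siPSCA, with no read for CD3E, CD3D, CD2 and CD68. Of 10 fibroblast and endothelial markers, COL1A1 alone reached it, at 5.44 FPKM, and the summed level was 3.74 to 6.07 FPKM in NC and 6.40 to 6.99 FPKM in siPSCA. In such bulk samples, a change in the share of one kind of cell and a change in RNA per cell cannot be told apart.

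One property of all libraries touches the results below. The log2 fold change of a gene moved with the GC content of its exons, with a Spearman correlation of 0.669 across 13792 genes, which are not independent replicates. Genes under 40% GC had a median log2 fold change of -0.34 and genes above 60% GC one of 0.61. NC 3 differed from NC 1 and NC 2 along the same property (Spearman correlation -0.567). Values with the trend on GC and length removed from each library are therefore given for the 9 genes and for the genes of the wider pathway that are named because they passed the test. How far base composition contributed to each difference was not tested.

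Among the 9 genes, 5 rose, 1 fell and 2 did not pass the test, and PSMB8 lay under the minimum of 1 FPKM that genes needed to be tested. HLA-C, TAP1 and TAPBP were 1.66 to 1.73 times as high in siPSCA as in NC, PSMB9 was 1.55 times and TAP2 1.18 times as high. HLA-E was lower in siPSCA, at 0.864 times its level in NC. The heavy chain HLA-B and the light chain B2M differed by less than 0.11 on the log2(FPKM + 1) scale. The changes were tested with limma on log2(FPKM + 1), on which scale all log2 fold changes are given, siPSCA against NC. At an adjusted p under 0.05, 26.6% of the 13796 tested genes were higher in siPSCA and 24.2% lower, 50.7% in all. The median log2 fold change was 0.34 over the 8 tested genes of the pathway and 0.01 over all tested genes. In 6 of these 8 genes every siPSCA library was higher than every NC library, which held for 33.7% of all tested genes, and in 1 every siPSCA library was lower, which held for 30.8%. A second threshold, a log2 fold change beyond 0.5 in size at a p under 0.05 before adjustment, was met by HLA-C, TAP1 and TAPBP, all higher, and by 14.7% (higher) and 10.2% (lower) of all tested genes. PSMB9, 1.55 times as high in FPKM, missed it at 0.48 on the log2(FPKM + 1) scale, which shrinks changes of genes at a low level.

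With the GC and length trend removed, 6 of the 8 tested genes were higher and 2 lower, against 21.3% and 18.2% of all genes, and their median log2 fold change was 0.31. HLA-C, TAP1, TAP2, TAPBP and PSMB9 were higher and HLA-E lower in both fits. B2M passed the threshold as higher after the removal. HLA-B, which had not passed it before (0.09, adjusted p = 0.147), passed it as lower (-0.32, adjusted p = 0.0139). The log2 fold changes of both fits for each gene are shown in the plot by gene and GC content.

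**Figure D1:**
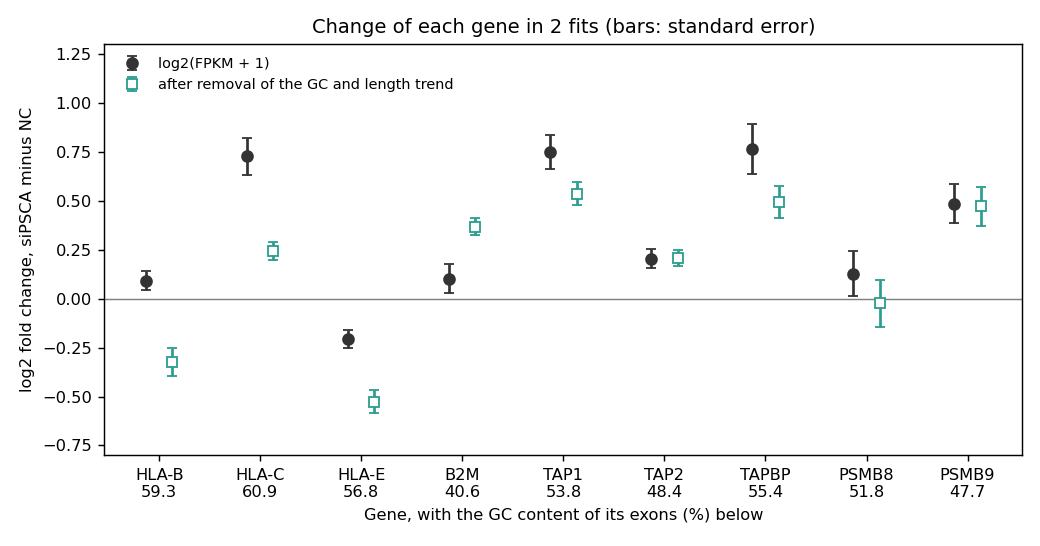
Log2 fold change of each of the 9 genes (siPSCA minus NC) on the log2(FPKM + 1) scale (filled circles) and with the GC and length trend taken out (open squares), with bars of 1 standard error and the exonic GC content below each name. TAP1, TAPBP and PSMB9 lie above 0 in both fits, HLA-E lies below 0 in both, and HLA-B changes side from 0.09 to -0.32.

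The level order of the genes, given as FPKM and thus per length, was the same in both groups. It ran from HLA-C through B2M, HLA-B, HLA-E, TAPBP, TAP1, TAP2 and PSMB9 to PSMB8. Neighbours in that order did not overlap in their libraries, with the exception of B2M and HLA-B in NC, where B2M ranged from 73.5 to 87.6 FPKM and HLA-B from 70.7 to 75.2 FPKM. Of these 9 genes, the heavy chains and B2M thus lay above TAPBP, TAP1 and TAP2, and PSMB9 and PSMB8 were lowest, as the plot of levels in each library shows.

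**Figure D2:**
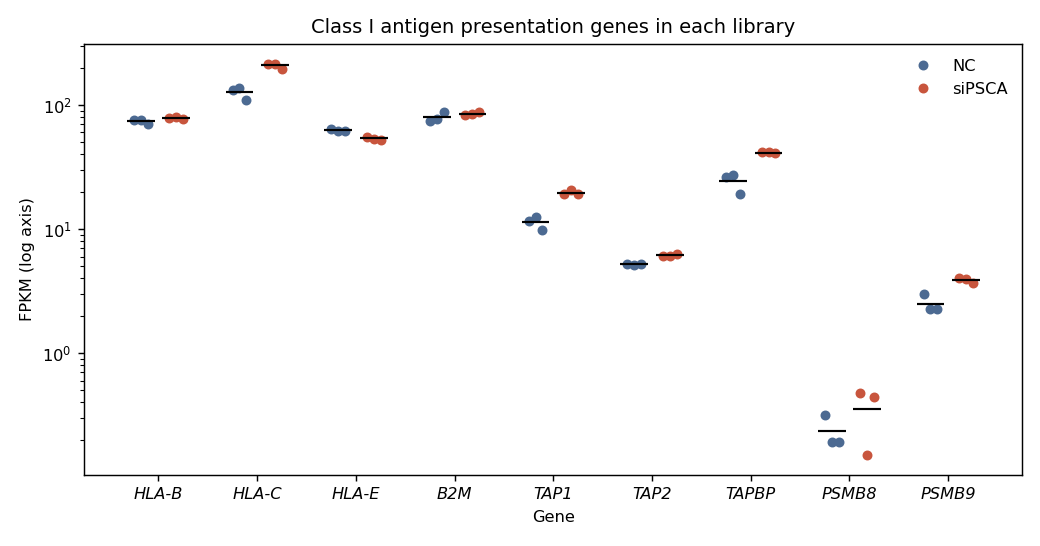
FPKM of the 9 genes in each of the 3 NC and 3 siPSCA libraries on a log axis, with a line at each group mean. The siPSCA libraries lie above all NC libraries for HLA-B, HLA-C, TAP1, TAP2, TAPBP and PSMB9, and PSMB8 lies below 1 FPKM throughout.

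HLA-C, a classical heavy chain that is also a ligand of inhibitory receptors on natural killer cells, had the highest level of the 9 genes and rose. The gene (ENSG00000204525, chromosome 6, 31268749 to 31272130, minus strand, GRCh38) measured 133, 136 and 110 FPKM in NC 1, 2 and 3 and 215, 215 and 195 FPKM in siPSCA 1, 2 and 3. The groups did not overlap, and NC 3 was the lowest of the 6. The means were 126 ± 14.3 FPKM (SD, n = 3) and 209 ± 11.7 FPKM (SD, n = 3), with a log2 fold change of 0.73 (SE 0.09, adjusted p = 0.00220). HLA-C has a GC content of 60.9%, and the log2 fold change with the GC trend removed was 0.24 (adjusted p = 0.00803).

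HLA-B, the neighbouring classical heavy chain (ENSG00000234745, chromosome 6, 31269491 to 31357188, minus strand), stayed within a narrow range. It measured 75.2, 75.2 and 70.7 FPKM in NC and 77.9, 80.5 and 77.4 FPKM in siPSCA. The groups did not overlap, yet the log2 fold change was 0.09 (SE 0.05, adjusted p = 0.147). At a GC content of 59.3%, removal of the GC trend gave -0.32 (adjusted p = 0.0139), the opposite direction. The gene AL671883.2 on the opposite strand covers 542 exonic bases of HLA-B (17.8%).

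The ratio of HLA-C to HLA-B compares both classical chains within a library. It was 1.76, 1.81 and 1.55 in NC and 2.76, 2.68 and 2.52 in siPSCA, so the groups did not overlap. The log2 ratio was higher by 0.64 in siPSCA (exact two-sided permutation test, p = 0.1, the smallest that 3 libraries against 3 allow, and 0.125 adjusted over 5 ratios). On the log2(FPKM + 1) scale it was 0.64, and 0.57 with the GC trend removed, and on the FPKM scale 0.57 to 0.68 when each library was left out in turn. Of all 50-base windows in its transcripts, HLA-C shared 5.38% with other genes and HLA-B 2.72%, so a part of their reads could be counted for either gene.

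HLA-E, the nonclassical heavy chain that presents leader peptides of other class I chains to natural killer cells, fell. The gene (ENSG00000204592, chromosome 6, 30489467 to 30494205, plus strand) measured 64.0, 61.5 and 61.1 FPKM in NC and 55.5, 53.5 and 52.3 FPKM in siPSCA. All siPSCA libraries lay below all NC libraries. The log2 fold change was -0.21 (SE 0.05, adjusted p = 0.0125) and -0.53 with the GC trend removed (adjusted p = 0.00145). Without siPSCA 2 it was -0.20 and missed the threshold (adjusted p = 0.0545). HLA-E shared 4.34% of its 50-base windows with other genes, HLA-G among them.

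B2M, the invariant light chain that every class I heavy chain needs to reach the surface, lies outside the MHC region (ENSG00000166710, chromosome 15, 44711487 to 44718877, plus strand). It measured 73.5, 77.2 and 87.6 FPKM in NC and 83.2, 84.0 and 88.4 FPKM in siPSCA. NC 3 lay within the range of siPSCA, so the groups overlapped. The log2 fold change was 0.10 (SE 0.07, adjusted p = 0.284). B2M has the lowest GC content of the 9 genes, 40.6%, and with the GC trend removed its log2 fold change was 0.37 (adjusted p = 0.00190). Without NC 3 it was 0.17 and passed the threshold (adjusted p = 0.0161).

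TAP1, a subunit of the transporter that carries peptides into the ER, rose in all siPSCA libraries. The gene (ENSG00000168394, chromosome 6, 32845209 to 32853978, minus strand) measured 11.6, 12.4 and 9.88 FPKM in NC and 19.2, 20.5 and 19.01 FPKM in siPSCA. The groups did not overlap and their means were 11.3 ± 1.28 FPKM and 19.6 ± 0.843 FPKM (SD, n = 3 each). The log2 fold change was 0.75 (SE 0.09, adjusted p = 0.00167), and 0.54 with the GC trend removed (adjusted p = 0.00146). It ranged from 0.66 to 0.81 when each library was left out in turn. The gene PSMB8-AS1 on the opposite strand covers 456 exonic bases of TAP1 (9.49%).

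TAP2, the other subunit (ENSG00000204267, chromosome 6, 32821833 to 32838780, minus strand), had a smaller log2 fold change. It measured 5.21, 5.17 and 5.19 FPKM in NC and 6.08, 6.01 and 6.29 FPKM in siPSCA. The NC libraries were nearly equal and all siPSCA libraries lay above them. The log2 fold change was 0.20 (SE 0.05, adjusted p = 0.0158) and 0.21 with the GC trend removed (adjusted p = 0.00950). The call was lost without siPSCA 1 (adjusted p = 0.0535), siPSCA 2 (0.0540) or siPSCA 3 (0.0606), with log2 fold changes of 0.21, 0.22 and 0.19. TAP2 shares 2064 exonic bases (32.3%) with the gene AL669918.1 on the same strand, so its reads could be split between both.

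The ratio of TAP1 to TAP2, which form 1 transporter as a heterodimer, was 2.23, 2.40 and 1.91 in NC and 3.15, 3.42 and 3.02 in siPSCA. Every siPSCA library lay above every NC library. The log2 ratio was higher by 0.56 (exact permutation p = 0.1, 0.125 adjusted over 5 ratios) with a range from 0.46 to 0.63 when each library was left out. On the log2(FPKM + 1) scale the difference was 0.54, and 0.33 with the GC trend removed.

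TAPBP encodes tapasin, which bridges the transporter and empty class I molecules. The gene (ENSG00000231925, chromosome 6, 33299694 to 33314387, minus strand) measured 26.3, 27.1 and 19.2 FPKM in NC and 41.6, 41.4 and 40.9 FPKM in siPSCA. The siPSCA libraries were nearly equal, and NC 3 stood below NC 1 and NC 2. TAPBP rose with a log2 fold change of 0.76 (SE 0.13, adjusted p = 0.00488), 0.61 without NC 3 and 0.49 with the GC trend removed (adjusted p = 0.00539).

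PSMB9, the immunoproteasome subunit that replaces PSMB6, rose as well. The gene (ENSG00000240065, chromosome 6, 32844136 to 32859585, plus strand) measured 2.98, 2.26 and 2.25 FPKM in NC and 4.0, 3.96 and 3.66 FPKM in siPSCA. These values rested on 119 to 154 reads in NC and 205 to 216 reads in siPSCA. The groups did not overlap, and the log2 fold change was 0.48 (SE 0.10, adjusted p = 0.00905), or 0.47 with the GC trend removed (adjusted p = 0.0123). PSMB9 shares 174 exonic bases (5.66%) with the gene PSMB8-AS1 on the same strand and 139 (4.52%) with PSMB8 on the opposite strand.

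PSMB8, the subunit that replaces PSMB5, was near the limit of detection. The gene (ENSG00000204264, chromosome 6, 32840717 to 32844703, minus strand) had 16, 10 and 10 reads in NC and 24, 8 and 24 reads in siPSCA, which are 0.318, 0.192 and 0.194 FPKM and 0.473, 0.150 and 0.440 FPKM. The lowest of all libraries was siPSCA 2, so the groups overlapped. Its log2 fold change was 0.13 (SE 0.12, adjusted p = 0.520, from the fit over all genes with a read), and the ratio of summed reads was 1.51 with an exact 95% interval of 0.978 to 2.37 that covers counting error only. A change was not detectable at this depth. An antisense gene, PSMB8-AS1, covers 618 of its exonic bases (20.6%), and whether reads were counted by strand is not given in the sources used here.

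Each immunoproteasome subunit was then set against the constitutive subunit it replaces. The ratio of PSMB9 to PSMB6 was 0.0545, 0.0400 and 0.0392 in NC and 0.0567, 0.0559 and 0.0549 in siPSCA, so NC 1 lay just below the lowest siPSCA library. The log2 ratio was higher by 0.34 (exact permutation p = 0.1), by 0.19 on the log2(FPKM + 1) scale and by 0.32 with the GC trend removed on that scale. The ratio of PSMB10, the remaining inducible subunit, to PSMB7 was 0.0124, 0.0125 and 0.00375 in NC and 0.0304, 0.0208 and 0.0318 in siPSCA. Its log2 ratio was higher by 1.70 (exact permutation p = 0.1), by 1.13 without NC 3, which had 7 reads for PSMB10, and by 0.60 when 1 FPKM was added to both genes, as in log2(FPKM + 1). On this last scale it was 0.10 with the GC trend removed. The ratio of PSMB8 to PSMB5 averaged 0.00356 ± 0.000852 in NC and 0.00400 ± 0.00206 in siPSCA (SD, n = 3 each), with a log2 ratio of 0.01 (exact permutation p = 1) that changed sign when single libraries were left out. All 3 ratios were under 0.06, so the constitutive subunits had the higher level in both groups.

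The wider pathway was taken from lists of genes that act at the same steps, and each list's counts stand against the 26.6% of all tested genes that were higher and the 24.2% that were lower. Among 19 other class I and class I-like heavy chains, 12 were tested, of which 4 were higher and 2 lower in siPSCA (median log2 fold change 0.19). HLA-F, a nonclassical chain, went from 1.82 to 2.87 FPKM (log2 fold change 0.46, adjusted p = 0.0141, and 0.0567 without siPSCA 1), and its value with the GC trend removed was 0.33 (adjusted p = 0.0328). The pseudogene HLA-H went from 2.04 to 4.88 FPKM (1.00, adjusted p = 0.0234), a call lost without siPSCA 1 (0.0801) or siPSCA 2 (0.0748) and with the trend removed (0.44, adjusted p = 0.0713). MR1, which presents vitamin metabolites, was higher by 0.27 on the log2 scale (adjusted p = 0.0234), and by 0.42 with the trend removed (adjusted p = 0.00394). Its call was lost without NC 1 (0.0537), NC 2 (0.0694), siPSCA 1 (0.0830) or siPSCA 3 (0.0770). The pseudogene HLA-K was lower (-0.61, adjusted p = 0.0262), with the call lost without NC 1 (0.0706), NC 2 (0.0513), siPSCA 1 (0.0837) or siPSCA 2 (0.0822) and a value of -1.06 with the trend removed (adjusted p = 0.00549). HLA-K had 33, 24 and 22 reads in NC and 9, 8 and 18 in siPSCA. Its mean in siPSCA, 0.628 FPKM, was under the minimum of 1 FPKM, so it was tested only through its level in NC. ULBP1, a ligand of the receptor NKG2D, was lower too (-0.35, adjusted p = 0.0232). Its call was lost without NC 2 (0.0663), siPSCA 1 (0.0650) or siPSCA 2 (0.0814) and with the trend removed (-0.20, adjusted p = 0.0647). The other gene called higher, HFE, was named after its values were seen (0.19, adjusted p = 0.0390, and 0.36 with the trend removed, adjusted p = 0.00645). Its call was lost without NC 2 (0.114), siPSCA 1 (0.105), siPSCA 2 (0.115) or siPSCA 3 (0.103).

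Among the ER chaperones and trimming enzymes were genes that fell while TAP1 and TAPBP rose. Of 10 genes, all tested, 1 was higher and 4 were lower (median log2 fold change -0.18). Calnexin (CANX), which folds new heavy chains, fell from 242 ± 27.6 to 146 ± 6.98 FPKM (log2 fold change -0.72, adjusted p = 0.00194), and PDIA3, the disulfide isomerase of the loading complex, fell from 158 ± 19.8 to 95.1 ± 4.12 FPKM (-0.72, adjusted p = 0.00218). Both were lower with the GC trend removed as well, by -0.58 and -0.59. UGGT1, which checks the folding of glycoproteins and the loading of class I, was lower at a log2 fold change of -0.29 (adjusted p = 0.0130), lost without siPSCA 1 (0.0529) or siPSCA 2 (0.0532) and with the trend removed (-0.12, adjusted p = 0.0565). Calreticulin (CALR), named after its values were seen, was the fourth lower gene (-0.22, adjusted p = 0.0410, and -0.50 with the trend removed, adjusted p = 0.0117). Its call was lost without NC 2 (0.0860), siPSCA 1 (0.0656), siPSCA 2 (0.115) or siPSCA 3 (0.123). PRKCSH, a glucosidase subunit, was the higher gene (0.31, adjusted p = 0.00892), but its value with the GC trend removed was -0.16 (adjusted p = 0.137).

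Of 13 genes that supply peptides in the cytosol, all tested, 6 were higher and 3 lower (median log2 fold change 0.19). PSMB10 rose from 0.483 ± 0.229 to 1.84 ± 0.411 FPKM (0.94, adjusted p = 0.00648), a call that was lost with the GC trend removed (0.42, adjusted p = 0.0612). Its mean in NC was under the minimum of 1 FPKM, so PSMB10 was tested, and counted among the 6, only through its level in siPSCA. THOP1, a peptidase that destroys class I peptides, rose (0.75, adjusted p = 0.00201, and 0.16 with the trend removed, adjusted p = 0.0920), as did PSME3, a nuclear proteasome activator (0.33, adjusted p = 0.00425, and 0.23 with the trend removed). The peptidases NPEPPS (-0.60, adjusted p = 0.00134), TPP2 (-0.48, adjusted p = 0.00620) and NRDC (-0.29, adjusted p = 0.0238) fell, of which NRDC lost its call without siPSCA 1 (0.0786), siPSCA 2 (0.0759) or siPSCA 3 (0.0538). With the trend removed NPEPPS was at -0.24 (adjusted p = 0.00900), while TPP2 (-0.17, adjusted p = 0.0603) and NRDC (-0.09, adjusted p = 0.183) did not pass the threshold.

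In the constitutive proteasome core, 13 of 14 genes were tested, 9 were higher and none was lower by limma, neither at the adjusted nor at an unadjusted p under 0.05 (median log2 fold change 0.24). With the GC trend removed 10 were higher and none lower. PSMA7 had the largest log2 fold change of the list (0.68, adjusted p = 0.00284), then PSMB4 (0.49, adjusted p = 0.00236) and PSMB3 (0.47, adjusted p = 0.0132). The catalytic subunits PSMB5 (0.45, adjusted p = 0.00460), PSMB6 (0.30, adjusted p = 0.00391) and PSMB7 (0.34, adjusted p = 0.0119) were among the higher genes. Each of these 6 subunits stayed past the threshold after the removal, at 0.60, 0.47, 0.39, 0.33, 0.15 and 0.32 in the order named.

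Of 15 tested regulators of class I transcription, 4 were higher and 4 lower, which is 26.7% each, near the shares of 26.6% and 24.2% of all tested genes (median log2 fold change -0.03). NLRC5, the class I transactivator, measured 1.6, 1.48 and 1.12 FPKM in NC and 3.04, 3.05 and 3.12 FPKM in siPSCA. It rose with a log2 fold change of 0.77 (SE 0.10, adjusted p = 0.00203), and of 0.55 with the GC trend removed (adjusted p = 0.00190). Its partner RFXANK was higher (0.50, adjusted p = 0.00174), yet the value was 0.01 with the trend removed. RFX5, another partner, was higher by 0.17 on the log2 scale (adjusted p = 0.0256), a call lost without NC 1 (0.0690), siPSCA 1 (0.0801), siPSCA 2 (0.0788) or siPSCA 3 (0.0824) and with the trend removed (0.09, adjusted p = 0.101). IRF1, which binds interferon response elements, was higher by 0.26 (adjusted p = 0.0493), lost without NC 1 (0.0815), NC 2 (0.124), NC 3 (0.0674), siPSCA 1 (0.153) or siPSCA 3 (0.143) and with the trend removed (0.10, adjusted p = 0.416). SUZ12, a subunit of the repressive Polycomb complex that silences class I genes in some tumors, fell from 22.5 to 12.7 FPKM (-0.78, adjusted p = 0.000930, and -0.43 with the trend removed). IRF2 (-0.54, adjusted p = 0.00232) and CREB1 (-0.39, adjusted p = 0.00651) were lower, at -0.54 and 0.08 with the trend removed. The other lower gene was EZH2, the catalytic subunit of the same Polycomb complex, named after its values were seen (-0.27, adjusted p = 0.00788, and -0.17 with the trend removed, adjusted p = 0.0435). EED, a further subunit of that complex and also named after its values were seen, did not fall. Its log2 fold change was 0.06 (adjusted p = 0.483), and with the trend removed it was higher (0.49, adjusted p = 0.00312).

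Of 11 tested genes of interferon receptors and their signalling, 2 were higher and 4 lower (median log2 fold change -0.15). With the GC trend removed 2 (18.2%) were higher and 6 (54.5%) lower, against 21.3% and 18.2% of all tested genes. The median was then -0.25. The kinase JAK2 (-0.51, adjusted p = 0.00350) and the receptor chain IFNGR1 (-0.49, adjusted p = 0.00121) fell, as did JAK1, named after its values were seen (-0.29, adjusted p = 0.0308), whose call was lost without NC 2 (0.0517), siPSCA 1 (0.0919), siPSCA 2 (0.0992) or siPSCA 3 (0.0566). With the trend removed these 3 genes were at -0.25, -0.32 and -0.25, each past the threshold. SOCS1, an inhibitor of JAK kinases, measured 4.41, 4.41 and 1.87 FPKM in NC and 11.9, 12.3 and 11.4 FPKM in siPSCA, a rise of 1.56 on the log2 scale (adjusted p = 0.00408) and of 0.72 with the trend removed. TYK2 rose by 0.74 (adjusted p = 0.00766, and by 0.27 with the trend removed). SOCS3 and IFNGR2, named after their values were seen, did not pass the threshold (-0.32, adjusted p = 0.117, and -0.14, adjusted p = 0.0931). With the trend removed both were lower past it (-0.77, adjusted p = 0.00118, and -0.37, adjusted p = 0.00352).

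Of 6 genes that take class I molecules off the surface, 5 were tested and 3 were higher (median log2 fold change 0.32), with none higher past the adjusted threshold and 1 at an unadjusted p under 0.05 by limma when the GC trend was removed. After that removal 1 gene was lower, TMEM127, named after its values were seen (-0.14, adjusted p = 0.0348). The 3 higher genes before the removal were SUSD6 (0.45, adjusted p = 0.0221), MARCHF9 (0.32, adjusted p = 0.00390), whose name had become a date in the table and which was found by its identifier, and WWP2 (0.21, adjusted p = 0.0172), at 0.29, 0.03 and 0.05 with the trend removed. The call of SUSD6 was lost without siPSCA 1 (0.0605), siPSCA 2 (0.0714) or siPSCA 3 (0.0629), and that of WWP2 without NC 2 (0.0583), siPSCA 1 (0.0521), siPSCA 2 (0.0601) or siPSCA 3 (0.0634). Class II presentation, which belongs to professional antigen presenting cells, was hardly expressed. Of 12 genes 2 reached 1 FPKM, HLA-DRA being the highest at a mean of 5.54 FPKM, and neither passed the test by limma, though HLA-DRA was lower at an unadjusted p of 0.0415 (log2 fold change -0.29, adjusted p = 0.0740).

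**Figure D3:**
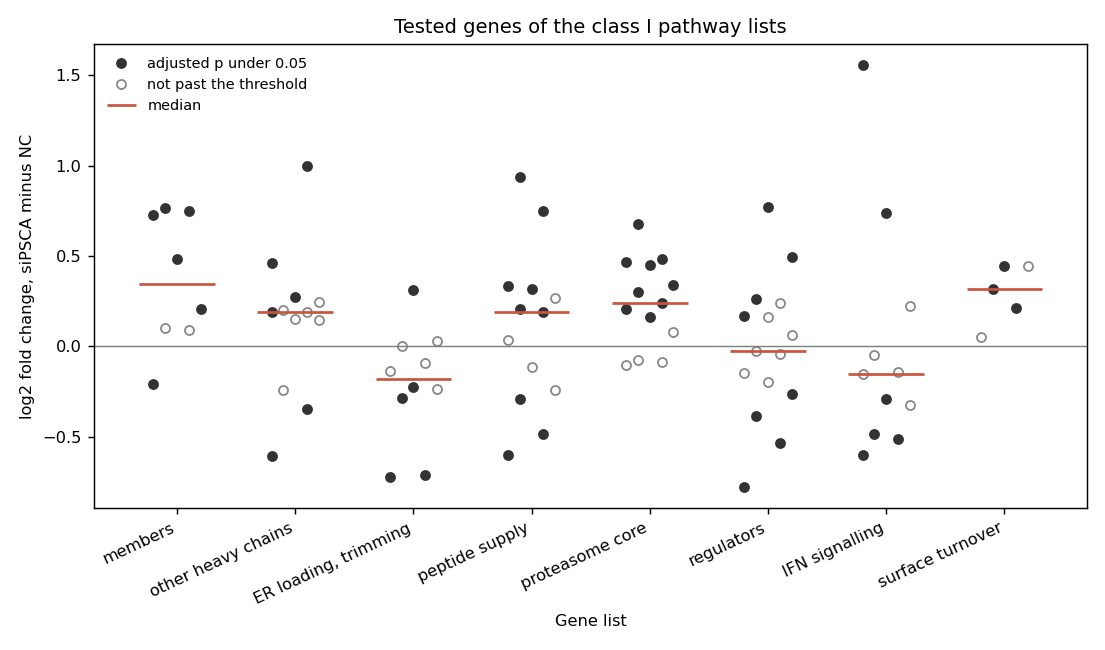
Log2 fold change (siPSCA minus NC, on the log2(FPKM + 1) scale) of every tested gene in the lists of class I pathway steps, filled where the adjusted p was under 0.05, with a line at the list median. Medians run from -0.18 for ER loading and trimming to 0.34 for the 9 genes (8 tested), and the constitutive proteasome core has no filled point below 0.

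Because 8 of the 9 genes lie in the MHC region of chromosome 6, their neighbours were described too. Between GABBR1 and KIFC1 (29555629 to 33409924) 78 protein-coding genes other than these 8 were tested, of which 37 (47.4%) were higher and 1 (1.28%) was lower in siPSCA (median log2 fold change 0.30), against 26.6% and 24.2% of all tested genes. Their median GC content was 55.7%, against 48.0% for all tested genes. With the GC trend removed, 17 (21.8%) were higher and 11 (14.1%) lower, against 21.3% and 18.2% of all tested genes, and the median was 0.04. The 7 tested genes of the pathway in the region had a median of 0.48, and of 0.24 after the same removal. The difference from their neighbours was not tested.

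Outside the region, the protein-coding genes whose profile over the 6 libraries was most like that of 3 of the genes were listed, by the smallest Euclidean distance between log2(FPKM + 1) values centred on their mean. SLC35G1 and CEP72 were among the 3 closest to HLA-B, at distances of 0.0362 and 0.0381. PRPF8, DYNC1H1 and SMC1A were closest to B2M (0.0329 to 0.050), and GRWD1, CYB5R3 and SMTN to TAP1 (0.0512 to 0.0858).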

How the data were processed

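RNA of HCT116SCs was sequenced with paired ends on an Illumina platform from NEBNext Ultra libraries, 3 NC and 3 siPSCA. The authors deposited 1 table of FPKM values per gene, with gene length and position. The build GRCh38 comes from the submitters' processing notes, and all 58735 genes had the identifier, start and end of GENCODE 29. Aligner, counting program and use of strand are not given in the sources used here. FPKM multiplied by length was a whole multiple of 1 read for 100% of values (tolerance 0.02), so reads were recovered. Library totals were 16803235 to 18218661, and 1 read on 1 kb was 0.0549 to 0.0595 FPKM.

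limma 3.58.1 in R 4.3.3 (lmFit, eBayes with trend) was fitted to log2(FPKM + 1) of 13796 genes with a mean of at least 1 FPKM over the 6 libraries, with group as the only term. PSMB8, PSCA and other genes under that minimum came from the same model over 34391 genes with a read. Every adjusted p (Benjamini-Hochberg over all genes of the fit) is from limma. Ratios were compared by exact two-sided permutation tests, 2 of which (HLA-C to HLA-B, TAP1 to TAP2) were chosen after seeing the data. The GC and length trend was removed by loess (span 0.3) from each library's deviation from the mean. Alternatives were a pseudocount of 0.1, TPM computed from the FPKM values, a minimum of 5 FPKM or none, a replicate block and leaving out each library. Count tests (edgeR and DESeq2) are not reported, because the values are FPKM. The scripts were tested on simulated data.

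The 9 genes, the pathway lists and the markers were chosen with earlier results of these data known. Named were all 9 genes, NLRC5, IRF1, RFX5, PSMB10, PSMB5, PSMB6, PSMB7, at most the 3 largest rises and 3 largest falls past the threshold in each pathway list, and 3 genes of similar profile each for HLA-B, B2M and TAP1. Some genes that this rule names are not reported here. Promoter sequences are from RefSeq, GRCh38.p14. Protein sequences were not used here. Intervals cover counting error only.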

Additional observations from a re-analysis of the deposited data

How the results depend on the processing

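The number of the 9 genes called higher was 5 and of those called lower 1 with a pseudocount of 0.1, TPM, the replicate block and no FPKM minimum. A minimum of 5 FPKM, which leaves PSMB9 untested, gave 4 and 1. With the GC and length trend removed, 6 were higher and 2 lower, without and with the replicate block. With an unadjusted p under 0.05 and an absolute log2 fold change over 0.5, 3 were higher (HLA-C, TAP1 and TAPBP) and 0 lower. Leaving out 1 library gave 4 to 6 higher and 0 to 1 lower. Over all tested genes, 3668 were higher and 3333 lower. The replicate block gave 3572 and 3153, the block with the trend removed 2421 and 2123, the unadjusted threshold 2027 and 1407, and a minimum of 5 FPKM, which tests fewer genes, 2140 lower. Leaving out 1 library gave 2299 to 4014 higher and 2328 to 3411 lower, with the fewest higher without siPSCA 1 and siPSCA 2 (2402). Any pairing of the libraries by replicate number was weak. The deviations of same-numbered libraries correlated at 0.0956, 0.0132 and 0.134. NC 1 and NC 3 correlated best with the siPSCA library of the same number, while NC 2 correlated best with siPSCA 1 (0.0362). The replicate block changed no call of the 9 genes, while HLA-K, HFE, CALR, RFX5 and IRF1 lost theirs, as did PSME2, LAP3 and PSMB2 of the wider pathway. SOCS3 (-0.32, adjusted p = 0.0122) and PSME4 (-0.24, adjusted p = 0.0197) of the wider pathway gained a call as lower with the block.

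With the GC and length trend removed, without and with the block, the log2 fold change reversed for HLA-B (-0.32, adjusted p = 0.0139 and 0.0203), PSMB8 (-0.024), PRKCSH (-0.16) and CREB1 (0.085), and B2M passed the threshold (0.37). The log2 ratio of PSMB8 to PSMB5 was -0.32 with a pseudocount of 1, -0.35 with the trend removed and -0.28 to 0.57 with 1 library left out, being below 0 without NC 2 (-0.12), NC 3 (-0.04), siPSCA 1 (-0.26) or siPSCA 3 (-0.28). The cause was not tested. The planned edgeR and DESeq2 fits are not reported, since the values are FPKM. Depth limited PSMB8, PSMB10 and HLA-K, with 8 to 24, 7 to 72 and 8 to 33 reads per library. With 3 libraries a group, permutation tests cannot go below p = 0.1.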
